A study of Bos taurus with 15 samples.

Results

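C1q and the genes of dead-cell clearance were described in the thymus of 15 Holstein cows. The set held 10 genes, C1QA, C1QB, C1QC, GAS6, MFGE8, MERTK, AXL, CD68, MSR1 and MRC1, of 14679 genes with a symbol on the array. A probe was taken where the array design gave the symbol as its gene name (4 probes) or in brackets in its description (8 probes), which found 12 probes of 21475, with 2 each for AXL and MSR1. The 8 probes named by description carry the name of the human gene to which the bovine transcript was called similar.

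Thymus tissue was collected at the slaughterhouse from 7 cows that received no treatment and from 8 cows given 30 mg of prednisolone per head daily by mouth for 35 days. All animals were Holstein, and their ages are not given in the sources used here. Prednisolone is a synthetic glucocorticoid. RNA of 1 animal was labelled with cyanine 3 and hybridised to 1 Agilent bovine array. Replicates are therefore animals. The main fit had no term for slide, so its p-values measure a spread between animals that includes differences between slides.

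Most thymocytes die inside the thymus during selection, and glucocorticoids kill immature thymocytes. The dead cells are taken up by resident macrophages. C1q, the recognition part of the first complement component, binds dying cells and is made mainly by macrophages. GAS6 and MFGE8 are secreted bridges that join phosphatidylserine on a dying cell to receptors of the phagocyte. MERTK and AXL are receptor tyrosine kinases that bind GAS6. CD68, a lysosomal glycoprotein, MSR1, the class A scavenger receptor, and MRC1, the mannose receptor, are used as markers of macrophages.

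Values are log2 of the processed spot signal minus the 75th percentile of the same array, so that 0 marks a bright probe and a step of 1 is a doubling. Levels of different probes are not compared. All 12 member probes were well above background on all 15 arrays, none of their 360 spots was saturated, and 4 were left out as outliers. The medians of the difference between the pair of spots of a probe lay between 0.035 (CD68) and 0.19 (C1QC, MFGE8 and the second MSR1 probe). The thymocyte genes CD3E, CD8A, RAG1 and PTCRA and the thymic epithelial genes FOXN1 and PRSS16 were well above background on all 15 arrays, and so were CSF1R and AIF1, which mark macrophages. Between 69.7% and 79.8% of an array's probes were well above background. The number of arrays limits the precision.

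The arrays lay on 4 slides that held the treatments unevenly. Controls 1, 2 and 5 shared slide 1 with prednisolone animal 6, and controls 4, 6 and 7 shared slide 3 with prednisolone animal 1. On slide 2 were prednisolone animals 3, 5 and 8 together with control 3. Prednisolone animals 2, 4 and 7 made up slide 4, which had no control. The difference between treatments is therefore given for most members also with slide as a block, without slide 4 or both. With slide as a random block, the fitted correlation between arrays of the same slide was 0.373.

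The first comparison asks whether transcripts of C1q and of the clearance receptors differ between treated and untreated cows. None of the 12 member probes passed the test (limma, Benjamini-Hochberg adjusted p under 0.05 over 16069 probes), against 0.0% of all probes tested, and the smallest adjusted p among them was 0.748 (GAS6). At an unadjusted p under 0.05 limma also found 0 of the 12, against 7.08% of all probes. The 2 groups overlapped for each of the 10 genes, and 0.103% of all genes had groups that did not overlap.

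**Figure D1:**
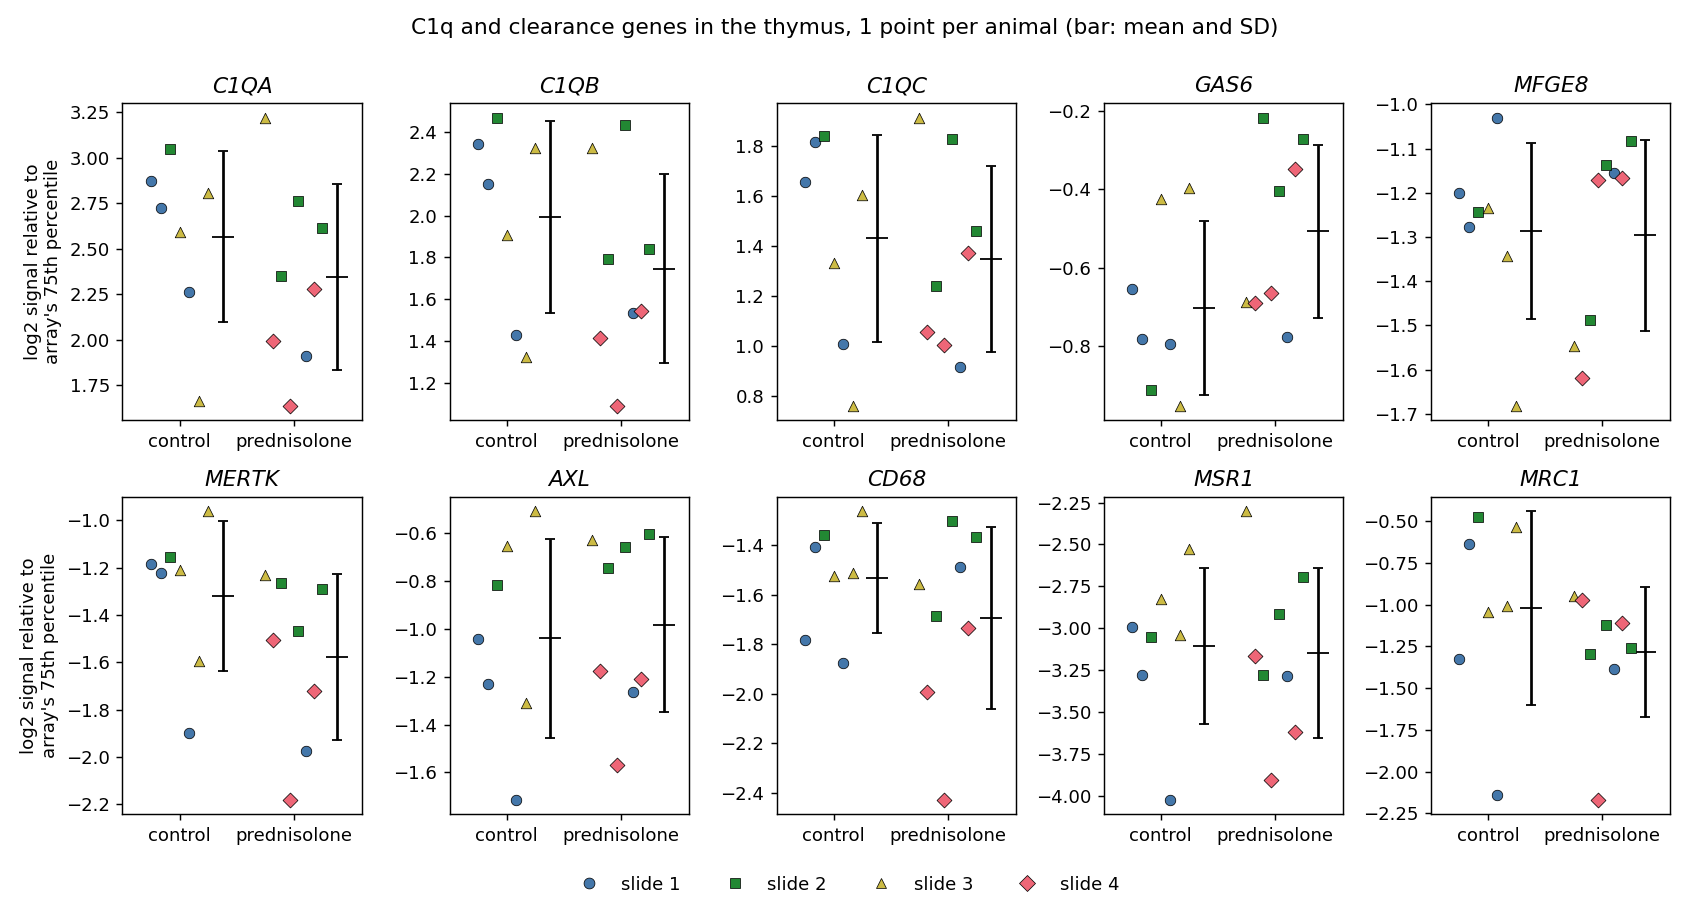
Log2 signal relative to the array's 75th percentile (vertical axis, a separate scale for each gene) for the brightest probe of each of the 10 genes. Each point is an animal, coloured and shaped by slide, in the control (7) and prednisolone (8) groups, and bars give mean and SD. The groups overlap in each panel, and for most genes the red diamonds of slide 4 lie in the lower part of the prednisolone group.

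The C1q chains spread widely between animals in both groups. C1QA encodes the A chain. Its value in controls was 1.66 at the lowest, 2.72 at the median and 3.05 at the highest, and in prednisolone animals 1.64, 2.32 and 3.22. Both groups thus covered nearly the whole range of the gene, with control 6 and prednisolone animal 4 lowest and prednisolone animal 1 highest. The means were 2.57 ± 0.47 (SD, n = 7) in controls and 2.35 ± 0.51 (SD, n = 8) in prednisolone animals. The log2 difference, prednisolone minus control, was -0.22 ± 0.24 (SE; limma adjusted p = 0.886), a fold of 0.858 with a 95% confidence interval from 0.602 to 1.22. It was -0.11 in the slide-blocked fit and 0.0043 without slide 4.

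C1QB, the B chain, lay between 1.32 and 2.47 in controls (median 2.15) and between 1.09 and 2.43 in prednisolone animals (median 1.67). Prednisolone animal 4 was the lowest and control 3 the highest. The difference was -0.25 ± 0.22 (SE; adjusted p = 0.852), and -0.0071 without slide 4. C1QC, the C chain, lay between 0.76 and 1.84 in controls (median 1.61) and between 0.92 and 1.91 in prednisolone animals (median 1.31). Control 6 was the lowest animal for this chain. Its difference was -0.082 ± 0.19 (SE; adjusted p = 0.957), and 0.041 without slide 4.

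Within single slides the chains moved one way together, and the way differed between slides. On slide 1 the single prednisolone animal lay below the mean of the 3 controls by -0.71 for C1QA, -0.44 for C1QB and -0.58 for C1QC. On slide 2 the 3 prednisolone animals lay below the single control by -0.47, -0.45 and -0.33. On slide 3 the single prednisolone animal lay above the mean of the 3 controls by 0.87, 0.47 and 0.68. Each of these values rests on 1 animal on one side, and the difference between slides was not tested.

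The bridging proteins varied least among the members. GAS6 lay between -0.95 and -0.40 in controls (median -0.78) and between -0.78 and -0.22 in prednisolone animals (median -0.54). All 8 prednisolone animals lay above the control median and 3 lay above the highest control, while 3.01% of all genes had each of the 8 prednisolone animals above the control median. The difference was 0.20 ± 0.11 (SE; adjusted p = 0.748, and 0.111 by the exact permutation test, two-sided, over 6435 splits), a fold of 1.15 (95% confidence interval 0.968 to 1.36). It was 0.16 in the slide-blocked fit and 0.23 without slide 4. On slide 2 it was 0.62, and it was -0.032 on slide 1 and -0.095 on slide 3, so that slide 2 alone gave a positive value.

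MFGE8, which bridges to integrins, lay between -1.68 and -1.03 in controls (median -1.24) and between -1.62 and -1.08 in prednisolone animals (median -1.17). The groups covered nearly the same span. The difference was -0.0082 ± 0.11 (SE; adjusted p = 0.994), with a 95% confidence interval of the fold from 0.847 to 1.17, the narrowest interval among the 10 genes. It was -0.034 under the slide block, 0.0058 without slide 4 and -0.22 with normexp background correction, which moves the median of all genes to -0.13.

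Of the receptor kinases, MERTK is the one known for uptake of dead cells by macrophages. Its value was between -1.90 and -0.96 in controls (median -1.21) and between -2.18 and -1.23 in prednisolone animals (median -1.49). All 8 prednisolone animals lay below the control median and 2 of them below the lowest control, and 2.66% of all genes had each of the 8 below the control median. The difference was -0.26 ± 0.17 (SE; adjusted p = 0.778, and 0.159 by the two-sided exact permutation test), a fold of 0.835 (95% confidence interval 0.653 to 1.07). It was -0.23 in the slide-blocked fit and -0.12 without slide 4. Within slides it was -0.54, -0.18 and 0.028 on slides 1, 2 and 3.

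AXL, the related kinase, lay between -1.72 and -0.51 in controls (median -1.04) and between -1.57 and -0.60 in prednisolone animals (median -0.96). The difference was 0.057 ± 0.19 (SE; adjusted p = 0.970), 0.26 without slide 4 and -0.055 without control 5, the lowest animal. The second AXL probe gave -0.019 ± 0.17 (SE; adjusted p = 0.986), and its values followed the first over the 15 animals (Pearson r 0.868). Slide accounted for 62.1% of the variance of AXL, the largest share among the brightest probes of the 10 genes, and treatment for 0.613%. Slide has more levels than treatment and is partly confounded with it, so these shares cannot be compared directly.

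CD68 lay between -1.87 and -1.26 in controls (median -1.51) and between -2.43 and -1.30 in prednisolone animals (median -1.62). The 2 prednisolone animals below the lowest control, animals 2 and 4, were both on slide 4. The difference was -0.16 ± 0.15 (SE; adjusted p = 0.861), -0.0049 in the slide-blocked fit and 0.052 without slide 4.

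MSR1 had values between -4.03 and -2.53 in controls (median -3.04) and between -3.91 and -2.30 in prednisolone animals (median -3.22). Its difference was -0.040 ± 0.24 (SE; adjusted p = 0.983), and its direction turned with slide as a block (0.24), without slide 4 (0.21) and with both probes averaged (0.018). With normexp it was -0.49 ± 0.27 (SE; adjusted p = 0.241). The second MSR1 probe gave 0.077 ± 0.27 (SE; adjusted p = 0.972) and followed the first (Pearson r 0.937). MRC1 lay between -2.14 and -0.47 in controls (median -1.01) and between -2.17 and -0.95 in prednisolone animals (median -1.19). Control 5 and prednisolone animal 4 were the lowest in their groups for both MSR1 and MRC1. The MRC1 difference was -0.26 ± 0.24 (SE; adjusted p = 0.853), -0.29 in the slide-blocked fit and -0.18 without slide 4.

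Over the 10 genes, 8 were lower and 2 (AXL and GAS6) higher with prednisolone, where 49.5% of all genes were lower. Their median difference was -0.12, beside 0.0013 over all genes. Without slide 4 the split was 3 lower and 7 higher, where 45.5% of all genes were lower. The median was then 0.023, beside 0.018 over all genes, and 5 of the 10 genes lay below the median of all genes. With slide as a fixed block 7 were lower and 3 higher, where 49.3% of all genes were lower. The median under the block was -0.055, beside 0.0026 over all genes. The excess of lower genes was thus lost when the 3 prednisolone arrays of slide 4 were left out, with a median near that of all genes. The split kept its direction with the block. Slide 4 had no control, so under the block it adds nothing to the difference between treatments. Both settings therefore rest on the other slides and differ in how these are weighted. The block compares animals within slides, each with a single animal on one side. For the 3 arrays of slide 4 slide and animal cannot be told apart.

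**Figure D2:**
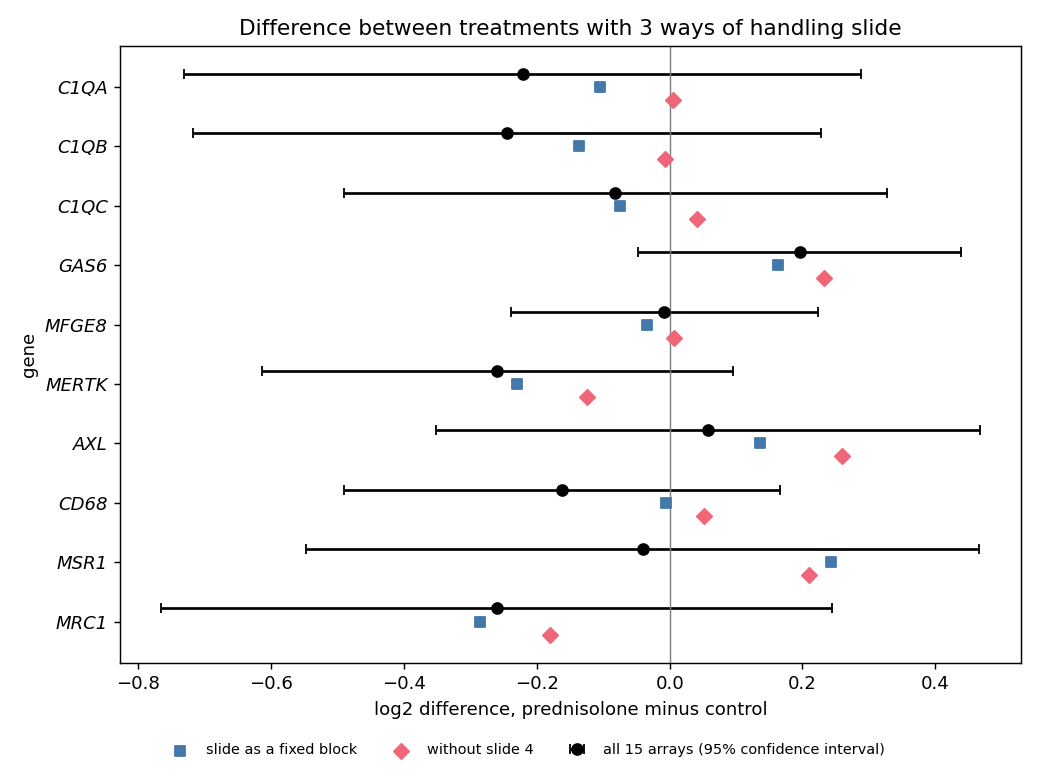
Log2 difference, prednisolone minus control (horizontal axis), for each of the 10 genes (vertical axis). Black points with 95% confidence intervals use all 15 arrays, squares use slide as a fixed block and diamonds leave out slide 4. Each interval crosses 0, and 8 of the 10 black points lie below 0 against 3 of the 10 diamonds.

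The next comparison set the 3 prednisolone animals of slide 4 against the other 5 prednisolone animals. Its replicates are animals and not slides, so its p-values cannot tell a difference of slide 4 from the spread between slides. All 10 genes were lower on slide 4, where 55.4% of all genes were lower, and their median difference was -0.45, beside -0.048 over all genes. CD68 alone passed the test among the 12 member probes, and 12.4% of all probes were called lower. CD68 had a mean of -2.05 ± 0.35 (SD, n = 3) on slide 4 and -1.48 ± 0.15 (SD, n = 5) on the other slides, without overlap, as 15.4% of all genes lay wholly lower on slide 4. Its difference was -0.57 ± 0.17 (SE; limma adjusted p = 0.0490), and in 7 of the 8 runs that left out 1 animal, all but that without prednisolone animal 7, it no longer passed, with adjusted p up to 0.130 (without prednisolone animal 4).

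C1QB was lower on slide 4 by -0.63 ± 0.22 (SE; adjusted p = 0.0865), C1QA by -0.60 ± 0.28 (adjusted p = 0.175) and MSR1 by -0.67 ± 0.26 (adjusted p = 0.113). AXL gave -0.54 ± 0.18 (adjusted p = 0.0732) and its second probe -0.57 ± 0.19. C1QC (-0.33), MERTK (-0.36), GAS6 (-0.097) and MFGE8 (-0.037) differed by less. MRC1 was -0.22 on slide 4 but 0.16 without prednisolone animal 4. When arrays were centred on the median instead, the median of all genes in this contrast moved to 0.18. Then 7 of the 10 genes were lower, where 31.8% of all genes were, and none passed. With quantile normalization 9 were lower, where 47.2% of all genes were, and none passed. With normexp background correction all 10 were lower, where 59.8% of all genes were. There 3 probes passed, CD68 (-0.64) and both probes of AXL (-0.55 and -0.50). Below the median of all genes lay 9 of the 10 genes in the main fit. This was 9 with median centring, 10 with quantile normalization and 10 with normexp.

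**Figure D3:**
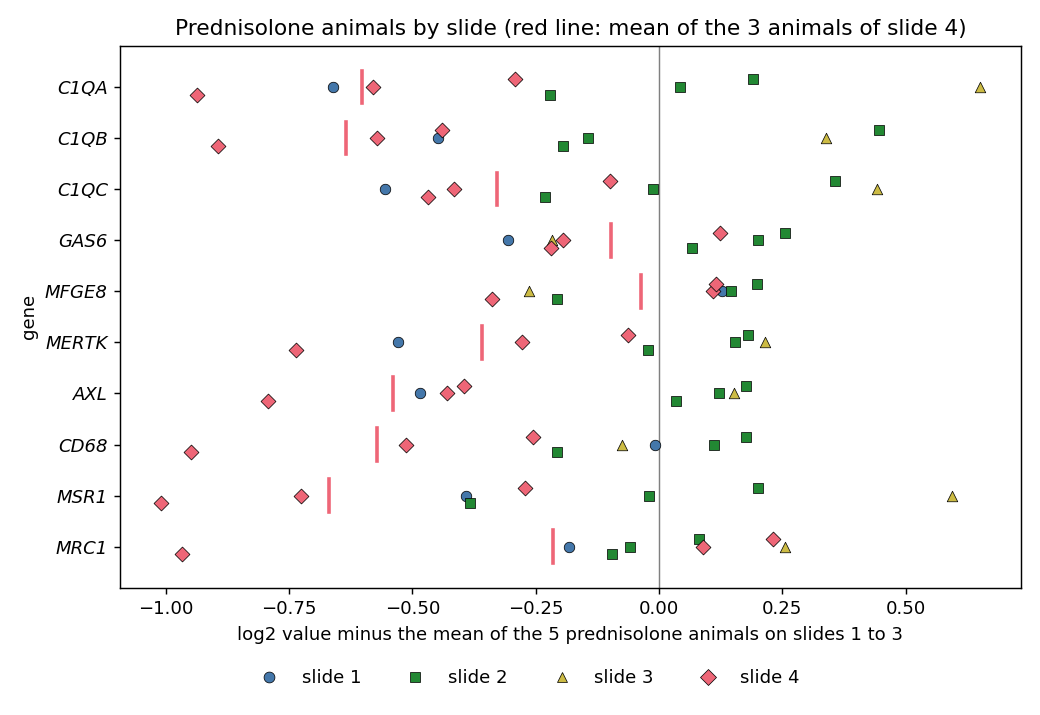
Values of the 8 prednisolone animals, for each of the 10 genes (vertical axis), as log2 minus the mean of the 5 animals on slides 1 to 3 (horizontal axis). Points are animals marked by slide, and the red line is the mean of the 3 animals of slide 4. Each red line lies left of 0, furthest for MSR1 (-0.67), C1QB (-0.63) and C1QA (-0.60).

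Slides differed among controls too, again with animals and not slides as replicates. The controls of slide 3 were set against those of slide 1, and none of the 12 member probes passed, against 5.91% of all probes called lower and 0.243% called higher. The difference was 0.63 ± 0.28 (SE; adjusted p = 0.248) for MSR1, 0.51 for AXL, 0.51 for MRC1 and -0.26 for C1QA. With normexp these were -0.21, 0.25, 0.26 and -0.094. Leaving out control 5 gave 0.34 for MSR1, 0.31 for AXL and 0.12 for MRC1, and leaving out control 6 turned C1QA to 0.081.

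The next question was whether the members varied together between animals. The 3 chains of C1q assemble into 1 molecule, and in the RefSeq gene order of cattle C1QC lies next to C1QA, with C1QB on the other side of C1QC and 1 further locus between them. C1QA and C1QB had a Pearson r of 0.936 over the 15 animals (Spearman rho 0.950), C1QA and C1QC one of 0.934 (rho 0.946), and C1QB and C1QC one of 0.918 (rho 0.914). All 3 had a permutation p of 1e-05, the smallest that 100000 permutations can give, and an adjusted p of 0.000150 over 45 pairs. The relation held at r between 0.942 and 0.954 within the 7 controls and between 0.908 and 0.946 within the 8 prednisolone animals, and between 0.909 and 0.926 without the 2 arrays farthest from the median. Once each value was set against the mean of its slide, r was 0.910, 0.943 and 0.941 (adjusted p = 0.00450, 0.00360 and 0.00690).

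The differences between chains varied less than the chains. C1QA minus C1QB was 0.58 ± 0.15 (SD, n = 7) in controls and 0.60 ± 0.19 (SD, n = 8) in prednisolone animals, C1QA minus C1QC 1.14 ± 0.16 and 0.996 ± 0.201, and C1QB minus C1QC 0.56 ± 0.14 and 0.40 ± 0.19. Over the 15 animals C1QB minus C1QC ranged from 0.086 in prednisolone animal 4 to 0.72 in control 7, while the mean of the 3 chains ranged from 1.24 to 2.49 over the animals. Prednisolone animal 1 and control 3 were the highest for the mean of the chains, and prednisolone animal 4 and control 6 the lowest, at nearly the same level (1.24 and 1.25). C1QA itself varied 3.00-fold over the 15 animals, and its SD of 0.49 was above that of 84.1% of all genes.

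Between all other pairs of member transcripts r was lower than between the C1q chains. Of the 28 pairs among C1QA, C1QB, C1QC, MERTK, AXL, CD68, MSR1 and MRC1, 25 passed the permutation test of Pearson r. All 25 were positive (adjusted p under 0.05 over 45 pairs), and they include the pairs between chains. C1QA with MRC1, C1QC with CD68 and C1QC with MSR1 did not pass. None of the 17 pairs with GAS6 or MFGE8 passed, so 25 of all 45 pairs did. How many pairs of other genes would pass was not counted. AXL and MSR1 had r of 0.866 (rho 0.871; p = 4e-05, adjusted p = 0.000450), C1QB and MERTK 0.804 (rho 0.793; p = 0.00023, adjusted p = 0.00207), and MERTK and AXL 0.802 (rho 0.704; p = 0.00035, adjusted p = 0.00262). By rank 15 of the 45 pairs passed. The pair of MSR1 and MRC1 fell from 0.681 to 0.226 without the 2 arrays farthest from the MSR1 median, so that this relation rested on those arrays.

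Values were then centred on slide means and permuted within slides, which leaves fewer arrangements. In this test 4 pairs passed, the 3 pairs of C1q chains and AXL with MSR1 (r 0.825, adjusted p = 0.00743). A further 8 pairs had an adjusted p of 0.0503. Among the pairs that no longer passed, r was little changed for C1QA with AXL (0.691 before and 0.690 after centring), C1QC with AXL (0.630 and 0.650), C1QB with MERTK (0.804 and 0.739) and CD68 with MRC1 (0.724 and 0.776). It fell for C1QA with CD68, from 0.578 to 0.300, and for MERTK with CD68, from 0.649 to 0.371. CD68 also fell with C1QB (0.68 to 0.42), AXL (0.67 to 0.46) and MSR1 (0.66 to 0.45). Of the CD68 pairs that had passed, only that with MRC1 did not fall. Pairs without CD68 fell too, among them MERTK with MSR1 (0.771 to 0.629), AXL with MRC1 (0.628 to 0.512) and MSR1 with MRC1 (0.681 to 0.566).

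By this threshold GAS6 and MFGE8 stood outside this group. None of their 17 pairs passed by Pearson r, and 1 passed by rank, MFGE8 with MRC1 (rho -0.67, adjusted p = 0.0319). All 9 pairs of MFGE8 had a negative r, from -0.53 with MRC1 and -0.50 with MSR1 to -0.074 with GAS6. With quantile normalization 28 pairs passed, 4 of them with GAS6 or MFGE8, namely the negative pairs of MFGE8 with MERTK (r -0.59, adjusted p = 0.0387), MSR1 (-0.64, 0.0256) and MRC1 (-0.57, 0.0458) and the positive pair of GAS6 with AXL (0.563, 0.0492). GAS6 and its receptor MERTK had r of 0.270 (permutation p = 0.328). With AXL, its other receptor here, GAS6 had 0.566 (rho 0.607; p = 0.0296, adjusted p = 0.0513). This r was close to that of C1QC with MRC1 (0.564, adjusted p = 0.0479), which passed. After centring on slide means GAS6 and AXL had 0.575 (adjusted p = 0.0503 by permutation within slides), among the 8 pairs at that value. The threshold thus does not separate GAS6 from AXL by the size of r.

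**Figure D4:**
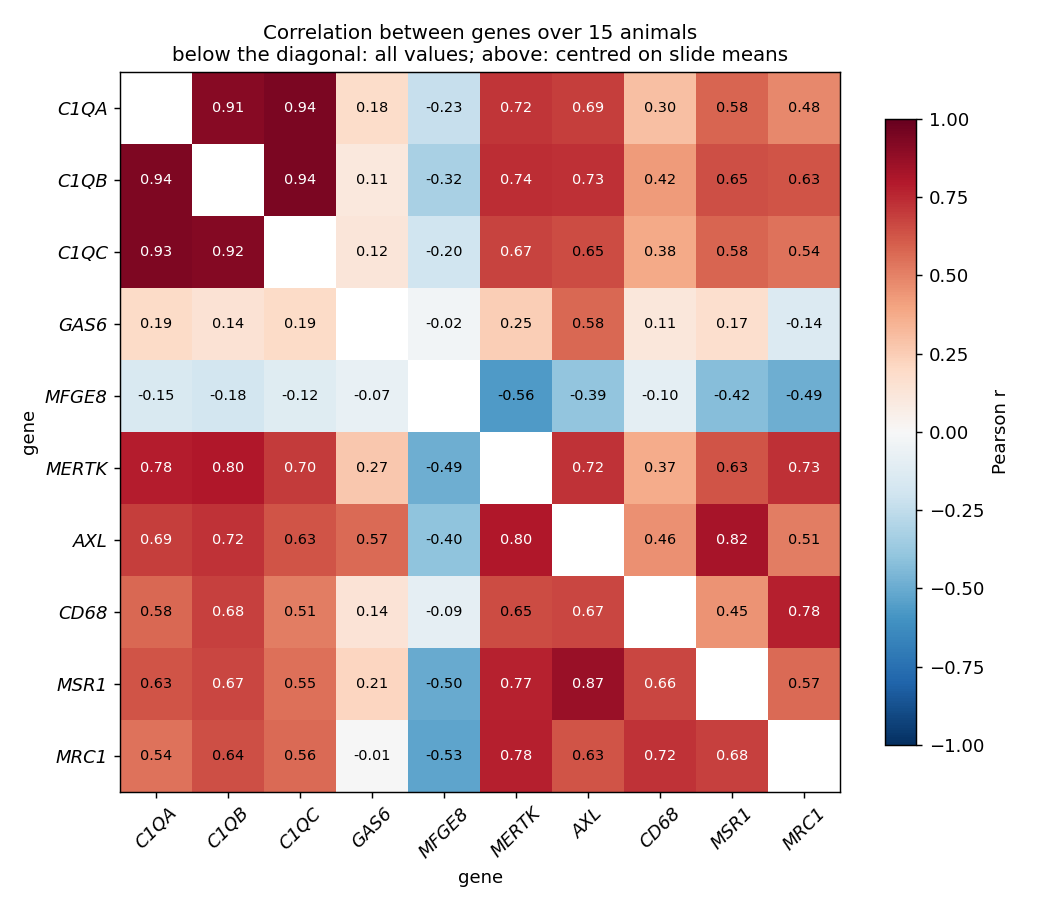
Pearson r between each pair of the 10 genes (rows and columns) over 15 animals, with all values below the diagonal and values centred on slide means above it. Red is positive and blue negative, and the 3 C1q chains form the darkest block (0.91 to 0.94) while the row and column of MFGE8 are blue throughout.

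**Figure D5:**
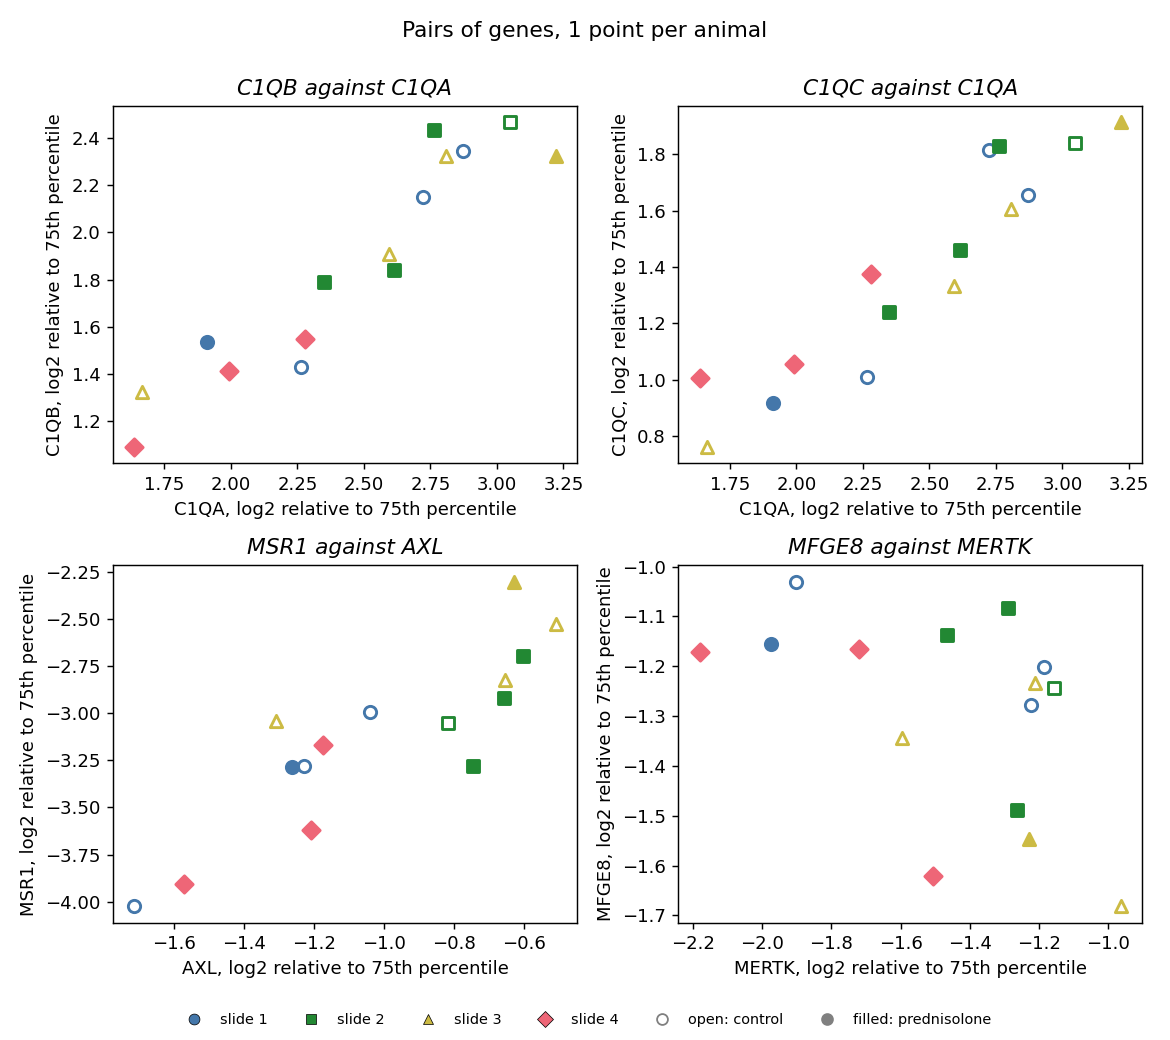
Values of 4 pairs of genes, as log2 relative to the array's 75th percentile on both axes. Each point is an animal, open for control and filled for prednisolone, coloured by slide. C1QB and C1QC rise with C1QA along a narrow band shared by both groups, MSR1 rises with AXL, and MFGE8 shows a loose fall with MERTK (r -0.49, adjusted p = 0.0895).

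Across all 11649 genes measured on each array, those whose values were most like the mean of the 3 C1q chains were HNMT, which inactivates histamine (Pearson r 0.860 over 15 animals), GDA, guanine deaminase (0.786), AIF1, a marker of macrophages (0.785), and BRB, a ribonuclease (0.781). The median r over all genes was 0.032. MERTK (0.784) lay between AIF1 and BRB in this order, so that 0.0601% of genes had an r at least as high, compared with 0.335% for AXL, 0.833% for MSR1, 1.31% for CD68 and 1.57% for MRC1. For GAS6 (0.179) and MFGE8 (-0.16) these shares were 34.8% and 67.7%. After centring on slide means the genes most alike were SLC10A7 (0.903), HNMT (0.870), ZNF786 (0.833), GDA (0.828) and BPIFA1 (0.808). All genes share the arrays, their centring and their slides, and these correlations are a description.

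Other genes of the same process were counted from lists, and in none of these lists did a gene pass between treatments (limma). Of 20 measured genes among other clearance receptors and bridges, 10 were higher and 10 lower (median 0.00071, -0.048 under the slide block and 0.029 without slide 4). The smallest p-values belonged to MEGF10, an engulfment receptor (-0.48 ± 0.24 SE), LRP1, a receptor for many ligands (0.29 ± 0.17), and CD14 (-0.30 ± 0.18, and -0.098 without slide 4), with adjusted p between 0.701 and 0.753. Of 21 genes of engulfment signalling and digestion, 9 were higher and 12 lower (median -0.049). Under the slide block 12 were higher (median 0.032), where 49.3% of all genes were lower. Without slide 4 the split was 14 higher and 7 lower (median 0.050), where 45.5% of all genes were lower. ABCA1, a cholesterol exporter, was 0.65 ± 0.29 (adjusted p = 0.700) but only 2 of the 7 control arrays and 7 of the 8 prednisolone arrays had it well above background. RXRA was 0.25 and VAV1 0.13, the latter 0.050 without slide 4.

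Of 7 measured dying-cell signals 3 were higher and 4 lower (median -0.013, and -0.024 without slide 4). CX3CL1, a chemokine, was -0.46 but -0.067 without slide 4, P2RY6 was 0.21 and 0.51, and PANX1 -0.29 and -0.094. PANX1 was well above background in 3 controls and 5 prednisolone animals. Of 24 other complement components and regulators 14 were higher and 10 lower (median 0.098, and 0.092 without slide 4). C3AR1, the receptor for the C3a fragment, was 1.07 ± 0.39 (SE; adjusted p = 0.655) but 0.33 without slide 4, and slide 4 differed from the other prednisolone arrays by 1.96 (adjusted p = 0.000944). CFB was 0.24. Of 11 other scavenger receptors and lectins 4 were higher and 7 lower (median -0.049). Under the slide block 7 were higher (median 0.024), where 49.3% of all genes were lower. Without slide 4 the split was 7 higher and 4 lower (median 0.088), where 45.5% of all genes were lower. SCARA3 was 0.28, CD163 -0.42 (-0.23 without slide 4) and PLA2R1 -0.29, which turned to 0.18 under the block and 0.087 without slide 4.

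In whole tissue, fewer macrophages and less transcript per macrophage cannot be told apart. Of 23 measured macrophage markers 17 were lower and 6 higher, with a median of -0.13, beside -0.12 for the 10 members. The slide block gave a median of -0.089, and leaving out slide 4 one of -0.046. On the scale of signal relative to the 75th percentile, the summed level of these markers lay between 114.7 and 136.7 in controls and between 110.6 and 130.2 in prednisolone animals, and none of the 23 was at 0. Sums are weighted towards bright probes, such as those of LAPTM5, which other leukocytes also express, and APOE. The mean log2 value of the 23 was -0.35 ± 0.17 (SD, n = 7) in controls and -0.51 ± 0.26 (SD, n = 8) in prednisolone animals, with -0.78 ± 0.21 (SD, n = 3) on slide 4 and -0.35 ± 0.10 (SD, n = 5) in the other prednisolone animals. The smallest p-values belonged to FCGR2B (0.37 ± 0.14 SE), HMOX1 (-0.43 ± 0.16) and SPIC (-0.59 ± 0.29, and -0.17 without slide 4). On slide 4, 20 of the 23 were lower than on the other prednisolone arrays, against 55.4% of all genes, and 4 were called lower, against 12.4% of all probes. These were CSF1R (-0.68), MPEG1 (-1.02), FCER1G (-1.09) and CSF1 (-1.29). CSF1 is counted in the list but encodes the ligand of CSF1R and does not itself mark macrophages. The part of macrophage content in the differences between animals or slides was not tested.

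The markers of other cell types had no gene that passed between treatments either. Of 11 thymocyte markers 9 were higher and 2 lower (median 0.092), where 49.5% of all genes were lower. Under the slide block 9 were higher (median 0.11). Leaving out slide 4 gave 7 higher and 4 lower (median 0.097), where 45.5% of all genes were lower. Of 6 erythroid markers all 6 were lower (median -0.36, -0.19 without slide 4 and 0.030 under the slide block, where 4 were higher). Of 6 adipocyte markers all 6 were higher (median 0.29, 0.90 without slide 4 and 0.83 under the block). Without slide 4 the median of thymic epithelium markers moved from 0.0022 to -0.049, of B cell markers from 0.25 to 0.24, and of dendritic cell markers from 0.031 to 0.092. It moved from -0.14 to -0.063 for neutrophils and monocytes, from -0.042 to 0.077 for endothelium and from 0.13 to 0.25 for fibroblasts. Whether these moved with the members was not tested.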

How the data were processed

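Per the file headers, the deposited scanner files give an intensity for every spot from Feature Extraction 9.5.1.1. The processed signal used here had background subtracted and a multiplicative trend removed, with no scaling across arrays, per the file headers. R 2.11.1 is named in the submitters' processing notes. A table of intensity values that the authors deposited served, after log2, as an alternative.

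The processed signal was taken to log2 and centred on each array's 75th percentile over 42990 bovine spots. Outlier spots were dropped before the spots of a probe were averaged. A probe was kept if 7 or more of the 15 arrays had it well above background, which left 16069 probes of 11706 genes, 67 of them with a missing value, and a gene was read from its brightest probe. Gene symbols came from the files and the RefSeq gene list of assembly ARS-UCD2.0. Slides were read from the file headers.

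Groups, taken from the treatment label, were tested by limma (3.58.1; R 4.3.3, statmod 1.5.0), with Benjamini-Hochberg adjustment over all kept probes and a threshold of 0.05. Single genes were also tested by exact permutation over 6435 splits, and relations by 100000 permutations (NumPy 2.4.6), within slides for slide-centred values. The fit was tested on simulated data with independent noise and no slide differences, unlike these arrays. It recovered 44% of log2 differences of 0.5 and 80.6% of those of 1, and 5.38% of its calls were false. No smaller difference was simulated.

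The members and lists were chosen with earlier results of these data known. Named genes were every member, the 3 genes of smallest p in a list, the 5 most like the mean C1q value and 6 tissue genes; the genes of smallest p in the marker lists of other cell types are not printed. Of the genes that this rule names, 2 are not reported here. Genes called on slide 4 were named after their values were seen. The alternatives were median centring, quantile normalization, normexp (offset 50), the authors' values, no filter or a stricter one, outlier spots retained, slide as a block (fixed, then random), a trended robust eBayes, slide 4 left out and single animals left out. Leaving out animals in the slide comparisons was added after the data were seen.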

Additional observations from a re-analysis of the deposited data

Results flagged for a closer look

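Within each treatment group, the lowest and highest animal of each of the 12 member probes was compared with the rest of its group by Dixon's test, 24 checks in all, and chance marks about 1 in 20. Control 5 had the lowest value of the second MSR1 probe, -5.53, with the next control at -4.59; it was also the lowest control by the first MSR1 probe, AXL, MERTK, CD68 and MRC1. Prednisolone animal 4 had an MRC1 value of -2.17, with the next prednisolone animal at -1.38; it was also the lowest of its group for C1QA, C1QB, MERTK, AXL, CD68 and MSR1, and lay on slide 4.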

How the results depend on the processing

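No member was called between treatments under any alternative run, and the smallest adjusted p of a brightest member probe was 0.236 (MERTK and CD68, both with normexp). Over all probes 1 was called with quantile normalization, and 0 to 3 with each animal left out (3 without prednisolone animal 1). The median member difference was -0.21 to -0.045 with each animal left out and 0.023 without slide 4. C1QB, MERTK, GAS6 and MRC1 kept their direction under all 27 alternatives. Among these, no filter, the stricter filter, the trended robust eBayes and the averaging of probes cannot change the difference of these genes. The direction turned without slide 4 for C1QA (0.0043), C1QC (0.041), MFGE8 (0.0058), CD68 (0.052) and MSR1 (0.21). It turned with normexp for C1QC (0.0067) and AXL (-0.076), with median centring for MFGE8 (0.014), and for MSR1 with slide as a fixed block (0.24), as a random block (0.11) and with both probes averaged (0.018). With each animal left out the ranges were -0.055 to 0.15 for AXL (negative without control 5), -0.074 to 0.038 for MFGE8 and -0.19 to 0.068 for MSR1. The cause was not tested. Normexp moved MSR1 to -0.49 and MFGE8 to -0.22, and the median of all genes to -0.13. Slide 4 against the other prednisolone arrays gave 1562 to 3280 probes with each animal left out. The controls of slides 3 and 1 differed at 988 probes, at 272 with quantile normalization, 82 with median centring, 0 with normexp and 0 to 657 with each control left out. Of the 45 relations between members 25 passed, and 4 after centring on slide means. No paired analysis was possible because the labels carry no replicate numbers that groups share. The 95% confidence intervals of the folds of the brightest member probes lay within 0.588 and 1.38, and that of the second MSR1 probe reached 1.57.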
